A study of Homo sapiens with 6 samples.

Results

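The genes of the proteasome were followed in HBEC3kt cells, a line of human bronchial epithelial cells kept dividing in culture, without and with the S34F mutation of the splicing factor U2AF1. Members were the Ensembl genes whose symbol begins with PSM, one of the letters A to G and a number, and that held at least 15 reads over all libraries. The rule gave 47 of 11034 genes with a read. Of these, 44 encode proteasome subunits, regulators or assembly factors, and 3 only share the symbol stem: the antisense RNA PSMA3-AS1, the pseudogene PSMC1P1 and PSMC3IP, whose product acts in meiotic recombination. A further 3 matching genes had fewer than 15 reads and were left out. Poly(A) RNA was copied into full-length cDNA and read on nanopores in 3 wild-type and 3 S34F libraries, and the labels state no treatment. Each genotype is represented by 2 cell isolates: isolate 1 gave replicate 1 and isolate 2 gave replicates 2 and 3, of which replicate 3 carries the mark B2 and the others the mark B1. Nothing states how the isolates were derived, so p-values measure the spread between these libraries, which is partly technical.

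Wild-type libraries held 1720292, 1286512 and 1584167 reads in replicates 1, 2 and 3, and S34F libraries 811255, 451540 and 1014868. The 44 proteasome genes took 108184 of these reads, from 73 for PSME4 to 19747 for PSMB6. U2AF1 itself was read at 303 to 569 CPM (reads scaled to a common library size) in wild-type and at 242 to 535 CPM in S34F libraries, and the genotype itself cannot be read from counts. All 10 listed markers of basal bronchial epithelium had reads, and none of 6 mesenchymal markers had any. EPCAM was low, at 0.848 to 10.6 CPM. CDH1 had 37.3 to 76.5 CPM in B1 libraries, and 965 and 862 CPM in the B2 libraries of wild-type and S34F. Of 6 blood cell markers only CD14 had reads, with at most 5.09 CPM in a library. Positions are in build hg19, CPM are scaled by the TMM method, and means are given ± SD over 3 libraries (n = 3) per genotype. Fold changes are S34F relative to wild-type on a log2 scale with their standard error (SE), from a fit over all genes in edgeR that holds a B1/B2 term.

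The proteasome degrades proteins tagged with ubiquitin. Its core particle stacks rings of alpha subunits, which form the gate, on rings of beta subunits, of which PSMB5, PSMB6 and PSMB7 carry the active sites. Interferon-inducible subunits PSMB8, PSMB9 and PSMB10 can replace these to form the immunoproteasome, known for making peptides for class I antigen presentation. A regulatory particle of ATPases (PSMC genes) and other subunits (PSMD genes) unfolds substrates, and the PSME genes encode alternative activators. U2AF1 contacts the AG at the 3′ end of introns, and S34F is known to change which 3′ splice sites are favoured according to the base before that AG.

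One splicing event of the proteasome genes passed the test, in PSME2, which encodes the beta subunit of the activator PA28. PSME2 (ENSG00000100911.9, chromosome 14, 24612575 to 24616430, minus strand) can begin its exon 3 at either of 2 acceptors. The upstream one lengthens the exon by 124 bases (24614982 to 24615105), which is not a multiple of 3. In the annotated transcript with the longer exon the stop codon lies in the added stretch, beginning at its base 37, and GENCODE 29 classes this transcript as a target of nonsense-mediated decay. The acceptors are shown, with that of the preceding 33-base exon, because their use is what the reads compare. Each line gives 20 intron bases and 10 exon bases as read from GENCODE 29 transcripts, with the intron's last 3 bases in capitals.
PSME2 upstream acceptor of exon 3: gcaagtcctttcattttCAGgtcttcagtt
PSME2 downstream acceptor of exon 3: ccttgcaatgtaacccaCAGgctgaggaat
PSME2 acceptor of the 33-base exon 2: gggtactgctctctgtgTAGgtggaggtct
Both exon 3 acceptors have a C before the AG, and the 33-base exon has a T.

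Reads of the longer exon were fewer in S34F cells. With the upstream acceptor there were 40, 42 and 33 reads in wild-type replicates 1, 2 and 3 and 17, 5 and 11 reads in S34F replicates. The downstream acceptor had 847, 797 and 588 reads in wild-type and 718, 264 and 473 in S34F libraries. The upstream share was thus 4.51%, 5.01% and 5.31% in wild-type and 2.31%, 1.86% and 2.27% in S34F libraries. Every S34F library lay below every wild-type library. The mean share fell from 4.94 ± 0.406% to 2.15 ± 0.251% (log2 odds -1.20, SE 0.34, edgeR adjusted p = 0.0449 over 18641 events). It was the only call among 318 events tested in proteasome genes (0.314%), while 1.2% of all events tested were called, and 0.869% of all events tested were called lower. limma on log odds also called it (adjusted p = 0.0167). The log2 odds stayed between -1.31 and -1.15 when any 1 library was left out, but each of the 6 omissions ended the call (adjusted p of 0.072 to 0.335). With replicate number as a block the value was -1.20 (adjusted p = 0.113), and the B1 libraries alone gave -1.16 (adjusted p = 0.33).

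The annotated isoform with this longer exon (ENST00000558273) fell as well, a measurement made from part of the same reads. It had 33, 32 and 24 reads in wild-type and 5, 4 and 5 in S34F libraries, or 22.5 ± 5.22 and 7.64 ± 1.82 CPM. The groups did not overlap and edgeR called the isoform (adjusted p = 0.0493, log2 fold change -1.56, SE 0.45). The call was lost in DESeq2 (adjusted p = 0.222), with replicate number as a block (adjusted p = 0.0593) and when any library other than S34F replicate 2 was left out (adjusted p of 0.0874 to 0.336). The form that skips the 33-base exon (ENST00000560410, protein-coding) had 15, 9 and 4 reads in wild-type and 16, 6 and 12 in S34F libraries. Its share of PSME2 reads was 1.06 ± 0.473% in wild-type and 2.14 ± 0.184% in S34F cells, without overlap. Its level did not pass the test (log2 fold change 1.44, SE 0.46, edgeR adjusted p = 0.0835). Over all PSME2 isoforms together, that exon was included in 96.4% of wild-type and 96% of S34F reads (edgeR adjusted p = 0.898). Isoform usage of PSME2 as a whole gave an adjusted p of 0.0672 by edgeR's diffSpliceDGE, and none of 32 proteasome genes tested was called, against 0.634% of all 2207 genes. PSME2 was the only one of the 32 with an unadjusted p under 0.05, which 6.39% of all genes tested had. The next by p were PSMD8, PSMB7, PSMD9, PSMB5 and PSMD11, each with an adjusted p of 1.

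**Figure D1:**
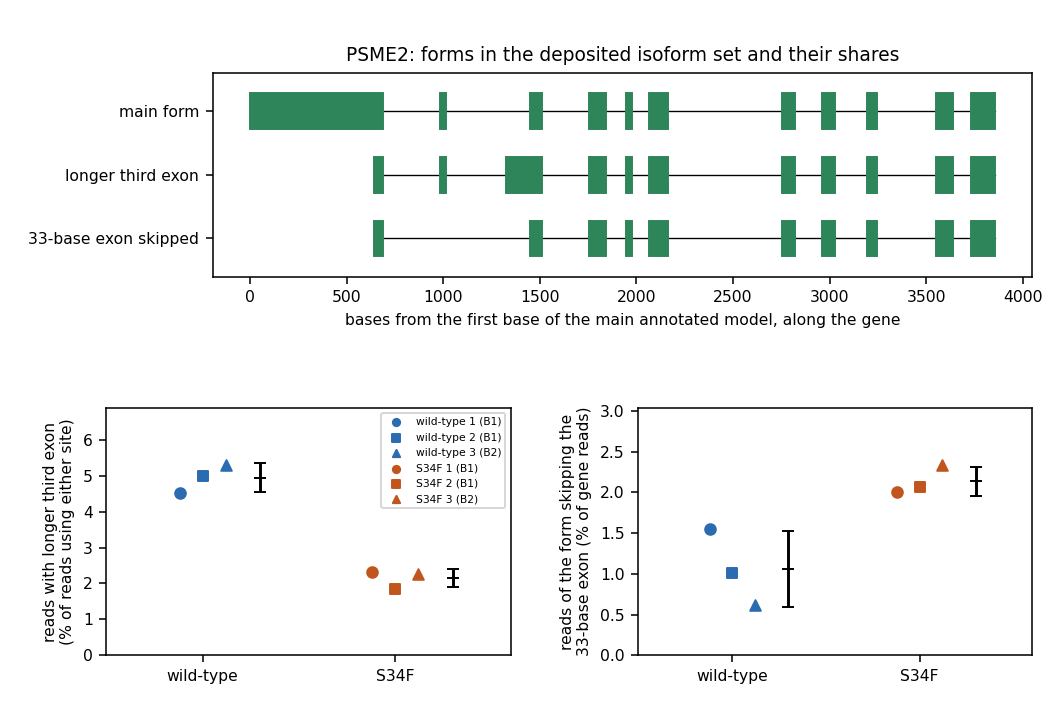
Exons (green, top panel) of 3 PSME2 forms along the gene, in bases from the first base of the main annotated model. The lower panels give the share of reads in % per library, with the mean ± SD (n = 3) beside each genotype. The longer exon 3 takes 4.51% to 5.31% of reads in wild-type and 1.86% to 2.31% in S34F libraries, and the skipping form 0.613% to 1.55% and 2.0% to 2.34%.

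The level of the proteasome genes, summed over isoforms, showed no called difference between genotypes. Of the 44 members that passed the filter on low counts, 0 were called by edgeR, against 3.24% of all 7033 genes and loci tested. At an unadjusted p under 0.05 there were 4 members (9.09%), against 17% of all genes. DESeq2 and limma-voom also called 0. The median log2 fold change was 0.07 over these members and 0.02 over all genes, and their median absolute values were 0.22 and 0.36. Only PSMG4 and PSMB9 had absolute log2 fold changes over 1 (4.55% of the members, against 10% of all genes). SEs of the members ran from 0.26 to 0.54. The 3 genes PSMD5, PSME4 and PSMC3IP did not pass the filter. Summed over the 44 subunit and regulator genes, wild-type libraries held 14850, 19160 and 14600 CPM and S34F libraries 22030, 14390 and 15050 CPM, so the genotypes overlapped. The genotypes did not overlap in 3 of the 44 tested members, PSMA6, PSMC3 and PSMC5 (6.82%), against 13.1% of all genes tested. A lower level in such bulk RNA can mean fewer cells with the transcript or less of it per cell, which cannot be told apart.

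**Figure D2:**
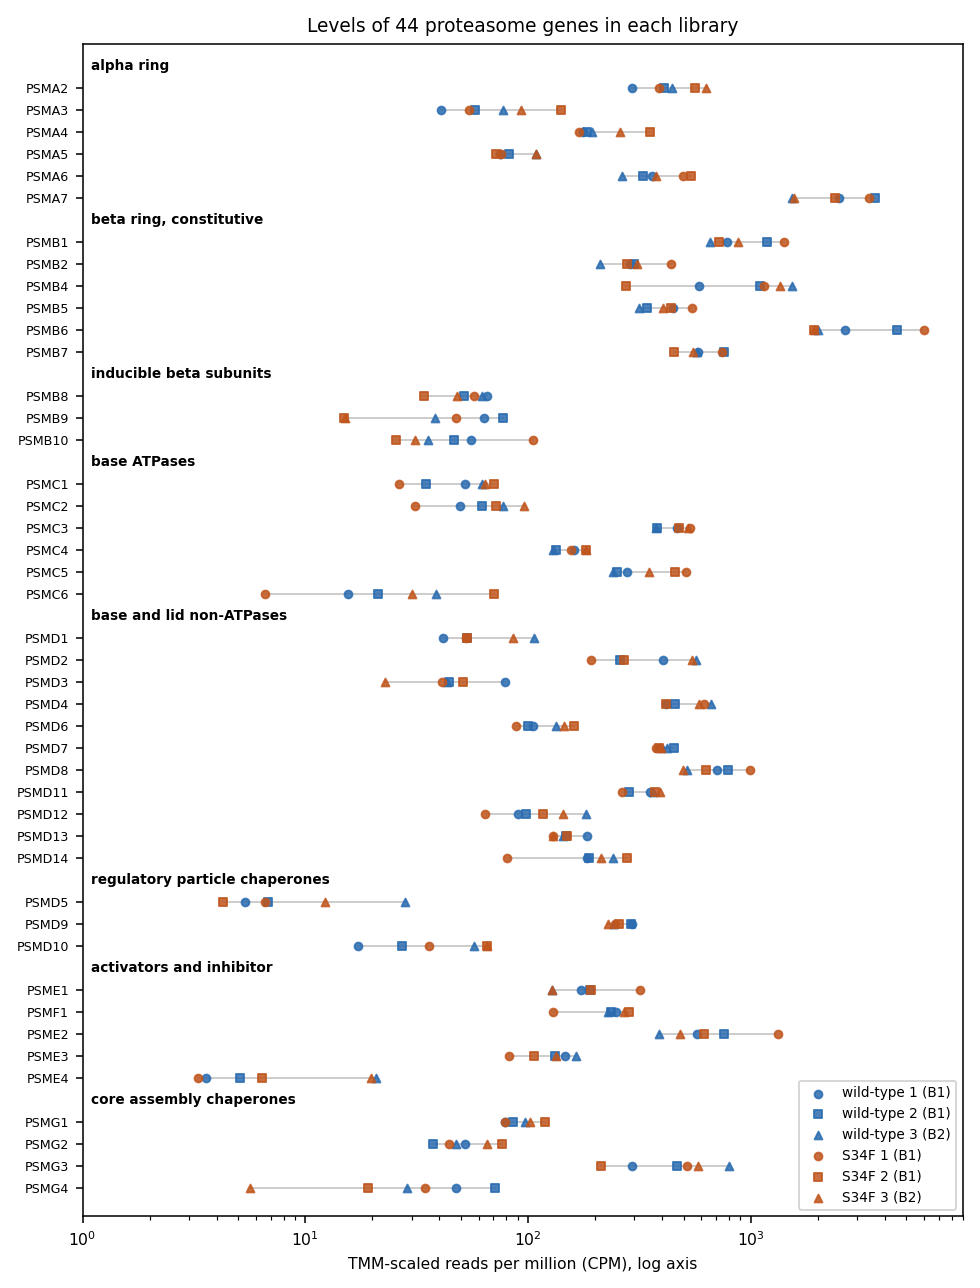
Level of each of the 44 genes in the 6 libraries (x axis, TMM-scaled CPM on a log scale), grouped by role, with grey lines from the lowest to the highest library. Wild-type (blue) and S34F (orange) libraries overlap in all rows but PSMA6, PSMC3 and PSMC5, and PSMB6 spans 1920 to 5980 CPM.

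Among the alpha subunits, 4 of the 6 measured had fold changes above 0 and 0 were called (median log2 fold change 0.48). PSMA6 (ENSG00000100902.6, chromosome 14, 35761556 to 35787799) was read at 359, 330 and 265 CPM in wild-type and at 499, 537 and 376 CPM in S34F replicates. The S34F libraries all lay above the wild-type ones (log2 fold change 0.56, SE 0.28, edgeR adjusted p = 0.319). PSMA3 (ENSG00000100567.8, chromosome 14, 58711550 to 58739119) had 40.5, 57.7 and 77.3 CPM in wild-type and 54.2, 140 and 92.6 CPM in S34F libraries. These overlapped (log2 fold change 0.72, SE 0.35, edgeR adjusted p = 0.315), and without S34F replicate 1 the gene was called (0.95, adjusted p = 0.0457). Of all genes, 5.91% were called with that library left out. PSMA7 ranged from 1530 to 3630 CPM in wild-type and from 1570 to 3390 CPM in S34F libraries, almost the same span.

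None of the constitutive beta subunits was called. PSMB5, the chymotrypsin-like subunit (ENSG00000100804.14, chromosome 14, 23485753 to 23504354), was read at 446, 342 and 315 CPM in wild-type and at 545, 440 and 403 CPM in S34F libraries (log2 fold change 0.33, SE 0.28). PSMB6, the caspase-like subunit (ENSG00000142507.5, chromosome 17, 4699440 to 4701770), had 2640, 4550 and 2010 CPM in wild-type and 5980, 1920 and 1930 CPM in S34F libraries (0.07, SE 0.42). PSMB7, the trypsin-like subunit (ENSG00000136930.8, chromosome 9, 127115746 to 127177718), had 582, 762 and 577 CPM in wild-type and 741, 454 and 552 CPM in S34F libraries (-0.13, SE 0.31). In all 3 genes the genotypes overlapped, and their edgeR adjusted p values ran from 0.606 to 0.955. PSMB4, a structural subunit of the beta ring, varied most between libraries of this group, from 276 CPM in S34F replicate 2 to 1540 CPM in wild-type replicate 3.

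Of the inducible subunits, PSMB9 had the widest difference between genotypes, without a call. PSMB9 (ENSG00000240065.3, chromosome 6, 32821926 to 32827624) was read at 63.7, 77.2 and 38.1 CPM in wild-type and at 47.6, 14.9 and 15.1 CPM in S34F replicates. S34F replicate 1 lay above wild-type replicate 3, so the groups overlapped. The difference did not pass the test (log2 fold change -1.19, SE 0.37, edgeR adjusted p = 0.11), but it did without S34F replicate 1 (-1.75, adjusted p = 0.00242) and with no filter on low counts (-1.38, adjusted p = 0.0104). PSMB8 (ENSG00000204264.4, chromosome 6, 32808495 to 32812428), which lies near PSMB9 on the other strand, had 65.5, 51.7 and 61.9 CPM in wild-type and 57.5, 34 and 48.2 CPM in S34F libraries (-0.35, SE 0.31, edgeR adjusted p = 0.615). PSMB10 (ENSG00000205220.7, chromosome 16, 67968406 to 67970750) had 55.4, 46.7 and 35.7 CPM in wild-type, and in S34F cells 105 CPM in replicate 1 against 25.5 and 31.2 CPM in the others (0.20, SE 0.40). PSMB10 thus had both its highest and its lowest library in the S34F group.

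Each inducible subunit was also set against the subunit it replaces, as its share of the reads of the pair within a library. PSMB9 made up 2.36%, 1.67% and 1.86% of PSMB9 and PSMB6 reads in wild-type and 0.79%, 0.77% and 0.776% in S34F libraries. PSMB8 made up 12.8%, 13.1% and 16.4% of PSMB8 and PSMB5 reads in wild-type and 9.54%, 7.17% and 10.7% in S34F libraries. In both pairs every S34F library lay below every wild-type one, with means of 1.96 ± 0.357% against 0.779 ± 0.0104% for PSMB9 and 14.1 ± 1.98% against 9.13 ± 1.78% for PSMB8. The PSMB9 shares rest on 107, 91 and 64 PSMB9 reads in wild-type and on 29, 7 and 16 in S34F libraries. With so few reads, the small SD of PSMB9 in S34F cells is not a measure of precision. How often the shares of other gene pairs separate in this way was not counted. With 3 libraries against 3, an exact two-sided permutation test cannot give a p below 0.1. It would also treat the libraries as independent, while replicates 2 and 3 of each genotype come from the same isolate. These shares are therefore given as a description only. PSMB10 made up 6.76 ± 1.67% of its pair with PSMB7 in wild-type and 7.70 ± 4.10% in S34F cells, with overlap. The share of all 3 inducible subunits together was 4.09 ± 0.951% and 2.85 ± 0.297%, also with overlap.

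**Figure D3:**
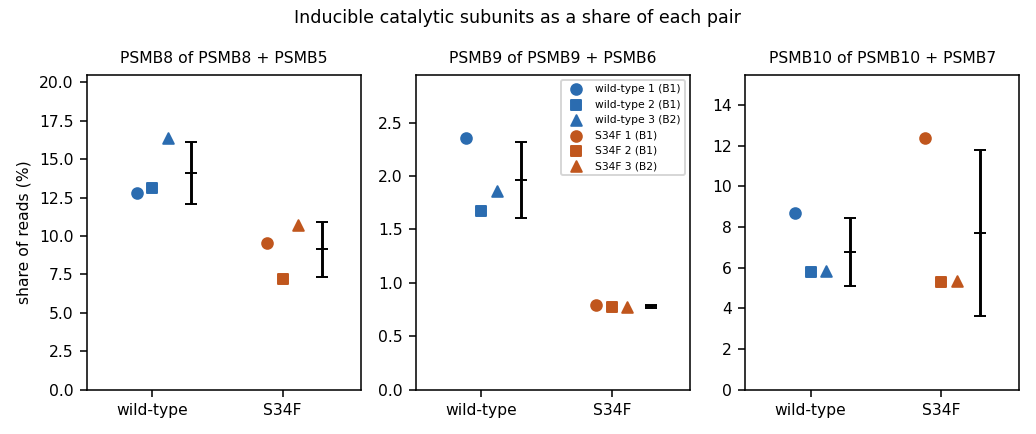
Share of each pair's reads (y axis, %) that belong to the inducible subunit, per library, with the mean ± SD (n = 3) beside each genotype. S34F libraries lie below wild-type ones for PSMB8 (7.17% to 10.7% against 12.8% to 16.4%) and PSMB9 (0.77% to 0.79% against 1.67% to 2.36%), and overlap them for PSMB10.

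All 6 ATPases of the regulatory particle had fold changes above 0 in edgeR, with a median of 0.32, and 4 of 6 in limma-voom. None was called by either, and 1 had an unadjusted p under 0.05 in each. The edgeR values of PSMC2 (0.04, SE 0.33), PSMC1 (0.08, SE 0.35) and PSMC6 (0.47, SE 0.54) lay within their SE. These genes were read in the same libraries, and the share of all genes above 0 was not counted. PSMC5 (ENSG00000087191.8, chromosome 17, 61904425 to 61909344) was read at 278, 252 and 240 CPM in wild-type and at 511, 459 and 349 CPM in S34F libraries. The groups did not overlap (log2 fold change 0.76, SE 0.28, edgeR adjusted p = 0.172). Its annotated coding isoform ENST00000310144 had levels of 133 ± 9.27 and 265 ± 40.0 CPM, a log2 fold change of 0.99 with SE 0.33 and an edgeR adjusted p of 0.092. PSMC3 stood at 407 ± 50.9 CPM without and 513 ± 30.6 CPM with the mutation (0.33, SE 0.28). PSMC6 spread widest, from 6.57 to 70.1 CPM within the S34F group. Reads of PSMC1 have to be taken with care, since the processed pseudogene PSMC1P1 on chromosome 3 took 987 reads and PSMC1 itself 350. The share of PSMC1P1 in their joint reads was 72.9 ± 3.61% in wild-type and 77.4 ± 5.17% in S34F cells, and how reads were divided between the copies was not tested.

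The 11 other subunits of base and lid had 4 fold changes above 0 and 7 below, a median of -0.10 and 0 calls. The widest differences were in PSMD3, a lid subunit, at 79.2, 44.1 and 43.4 CPM in wild-type and 41.1, 51.0 and 22.7 CPM in S34F libraries. These overlapped (log2 fold change -0.60, SE 0.33, edgeR adjusted p = 0.377). PSMD14, the deubiquitinase of the lid, had a fold change of -0.10 (SE 0.36), and PSMD4, a ubiquitin receptor, of 0.10 (SE 0.30).

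Among the assembly factors, PSMG4 and PSMD10 had unadjusted p values under 0.05. PSMG4, a chaperone of alpha ring assembly (ENSG00000180822.7, chromosome 6, 3259187 to 3268283), had 80, 84 and 48 reads in wild-type and 21, 9 and 6 in S34F libraries. Its levels were 47.7, 71.3 and 28.6 CPM in wild-type and 34.5, 19.1 and 5.67 CPM in S34F cells, where replicate 1 overlapped wild-type replicate 3. At gene level it missed the threshold (log2 fold change -1.43, SE 0.38, edgeR adjusted p = 0.0567). Its only isoform, ENST00000438998, holds the same reads, and scaled and adjusted over 13961 isoforms it was called lower (-1.49, SE 0.40, edgeR adjusted p = 0.029). At gene level PSMG4 was called without S34F replicate 1 (-1.92, adjusted p = 0.00189) or without S34F replicate 2 (-1.30, adjusted p = 0.0255), and with no filter on low counts (-1.62, adjusted p = 0.00309). The isoform call was lost without wild-type replicate 2, wild-type replicate 3 or S34F replicate 3 (adjusted p of 0.189 to 0.426), in the B1 libraries alone (-1.17, adjusted p = 0.4), without the B1/B2 term (adjusted p = 0.556), at equal depth (adjusted p = 0.0567) and in DESeq2 (adjusted p = 0.0783). PSMG4 had the shortest models of the 44 genes, at a mean of 779 bases, and its log2 level in B2 minus B1 libraries was -1.50. S34F replicate 3, the lowest, is a B2 library.

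PSMD10, also called gankyrin, a chaperone of base assembly (ENSG00000101843.14, chromosome X, 107327438 to 107334848), had 17.3, 27.1 and 57.1 CPM in wild-type and 36.1, 65.8 and 65.2 CPM in S34F libraries. The groups overlapped (log2 fold change 0.80, SE 0.36, edgeR adjusted p = 0.267). PSMD5, another base chaperone, held 83 reads in all and was not tested.

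The activator genes showed no called level difference. PSME1 (chromosome 14, 24605368 to 24608113), the alpha subunit of PA28, had 173, 189 and 128 CPM in wild-type and 319, 191 and 128 CPM in S34F libraries (log2 fold change 0.33, SE 0.29). PSME2, its partner, which lies nearby on the other strand, had 575, 758 and 388 CPM in wild-type and 1320, 616 and 484 CPM in S34F libraries (0.46, SE 0.34). In both genes S34F replicate 1 was the highest library. PSME3, the nuclear activator PA28 gamma (chromosome 17, 40985350 to 40995560), had 147, 132 and 165 CPM in wild-type and 82.1, 106 and 133 CPM in S34F libraries (-0.48, SE 0.26). The edgeR adjusted p values of these 3 genes ran from 0.379 to 0.611. PSME4, the gene of PA200 (chromosome 2, 54091205 to 54152781), had 6, 6 and 35 reads in wild-type and 2, 3 and 21 in S34F libraries, so most of its reads came from the B2 libraries.

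**Figure D4:**
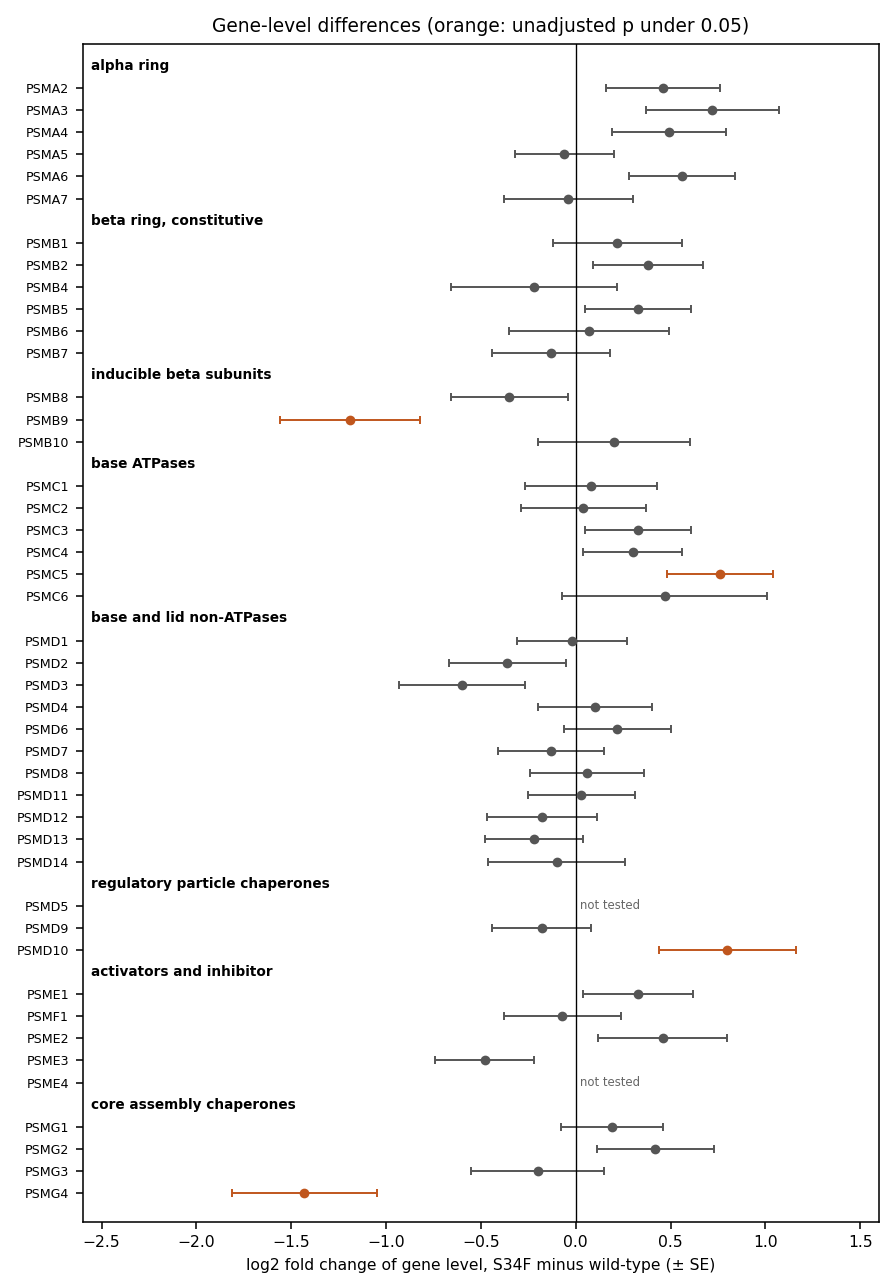
Log2 fold change of gene level, S34F minus wild-type (x axis), with its SE for each of the 42 tested genes by role. PSMG4 (-1.43) and PSMB9 (-1.19) lie lowest and PSMD10 (0.80) and PSMC5 (0.76) highest, and these 4 (orange) are the ones with an unadjusted p under 0.05.

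At isoform level 174 isoforms of proteasome genes were tested and 2 were called (1.15%), both lower, against 4.26% of all isoforms and 2.91% in that direction. These were the PSMG4 and PSME2 isoforms already described. The next by p, besides those of PSME2 and PSMC5 given above, were the main PSMB9 isoform (log2 fold change -1.22, SE 0.38, edgeR adjusted p = 0.071), an unannotated PSMB7 form of 7 exons and a coding PSMB5 isoform. The PSMB7 form took 2.29 ± 0.304% of the gene's reads in wild-type and 0.966 ± 0.129% in S34F cells (log2 fold change -1.35, edgeR adjusted p = 0.131). The PSMB5 isoform (ENST00000493471) took 5.22 ± 0.812% and 8.16 ± 1.86% (0.93, edgeR adjusted p = 0.153).

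Splicing of the other proteasome genes gave no call. Unadjusted p values under 0.05 were found for 15 of the 318 events, against 9.41% of all events. Of 186 cassette exons tested in 34 genes, 10 had higher and 1 lower inclusion in S34F cells at an unadjusted p under 0.05 (5.38% and 0.538%). Over all cassette exons these shares were 3.87% and 5.75%. The median log2 odds were 0.12 in the proteasome genes and 0.02 over all cassette exons. Exons of 1 gene share reads, and PSMA7 and PSMD11 each gave 2 of the 10. An exon of 116 bases in PSMB7 (chromosome 9, 127167596 to 127167711) was skipped in 4.4%, 3.67% and 3.3% of reads in wild-type and in 2.22%, 2.80% and 1.20% in S34F libraries. These did not overlap (log2 odds of inclusion 1.00, SE 0.38, edgeR adjusted p = 0.264). The share of all events without overlap was not counted, here or for the other events. An in-frame exon of 63 bases in PSMC3 (chromosome 11, 47445980 to 47446042) was skipped in 4.62%, 4.73% and 4.15% of wild-type and 2.17%, 1.79% and 2.91% of S34F reads. This too was without overlap or call (0.91, SE 0.35, edgeR adjusted p = 0.286). Its acceptor (20 intron and 10 exon bases), shown because the shares of the genotypes were apart, has a C before the AG. So had 42 of the 64 cassette exons whose base could be read.
PSMC3 acceptor of the 63-base exon: cccctgtaacttgtccaCAGacgtacttcc

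A PSMA7 exon of 127 bases (chromosome 20, 60715874 to 60716000) was included in 98.7 ± 0.679% and 99.2 ± 0.781% of reads (log2 odds 0.89, edgeR adjusted p = 0.278), and was called without S34F replicate 2 (1.57, adjusted p = 0.031). In the opposite direction, a 250-base exon near the start of PSMC5 (chromosome 17, 61905034 to 61905283) was included in 25.0 ± 5.78% of wild-type and 18.4 ± 5.04% of S34F reads (-0.56, SE 0.22, edgeR adjusted p = 0.286). The acceptor of this PSMC5 exon has a C before the AG as well. An intron of PSMB6 (chromosome 17, 4701107 to 4701303) was retained in 4, 4 and 7 wild-type reads and in 0, 0 and 1 S34F reads, where 898 to 5314 reads per library spliced it (-2.75, SE 1.04, edgeR adjusted p = 0.264). The base before the AG could be read for 64 of the 186 cassette exons. Inclusion in S34F cells had a median log2 odds of 0.18 for 42 exons with a C and 0.03 for 17 with a T. For 5 exons with an A it was 0.29. These exons were those an annotated transcript happens to cover, and the groups were not tested against each other.

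The choice of 3′ end was called in 0 of 29 proteasome genes tested, none of which had an unadjusted p under 0.05 in edgeR or limma. Over all 2329 genes, 0.859% were called and 7.73% had an unadjusted p under 0.05. The smallest p was that of PSMB2, whose distal end, 1323 bases further on, took 3.81 ± 2.16% of reads in wild-type and 2.34 ± 1.05% in S34F cells (log2 odds -0.83, SE 0.46, edgeR adjusted p = 0.694). In PSME3 the distal of 2 ends 332 bases apart took 7.08%, 9.77% and 11% in wild-type and 13.3%, 20.9% and 11.8% in S34F libraries, without overlap (0.69, SE 0.43, edgeR adjusted p = 0.787). The share of all genes without overlap in end use was not counted. PSMA6 used its distal end, 1174 bases on, in 74.5 ± 1.73% and 78.3 ± 2.68% of reads. PSMC4 used its distal end, 1407 bases on, in 26.8 ± 6.59% and 21.5 ± 3.75%. In PSMB5 and PSMA7 the distal end took nearly all reads in both genotypes, at least 96.9% in every library.

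The genes differed widely in how many transcript forms they held. The 44 genes had 507 isoforms, with a median of 9.5, from 1 in PSMG4 to 36 in PSMD4. The main intron chain, pooling isoforms that differ only at their ends, took between 34.7% of a gene's reads in PSMD2 and all of them in PSMG4, with a median of 75.6%. It took over 90% in 5 genes and under 50% in 3, which were PSMD2, PSME4 and PSMD5. Isoforms that GENCODE 29 types as protein-coding took 80.2 ± 1.75% of the 44 genes' reads in wild-type and 80.9 ± 3.21% in S34F cells. Forms typed as decay targets took 1.04 ± 0.0791% and 0.921 ± 0.201%, and forms without an annotated transcript 18.2 ± 1.67% and 17.6 ± 2.80%. In each of these classes the genotypes overlapped.

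Levels of proteasome genes varied between B1 and B2 libraries, and this went with transcript length. Length here is the mean length of a gene's isoform models, weighted by reads. Across the 44 tested members, its log2 correlated with the log2 difference of B2 from B1 at r = 0.47 (Spearman's rho 0.44). This is a description across genes that share libraries. Over all genes tested, r was 0.30. Members shorter than 1000 bases had a median difference of -0.38 (11 genes), and those over 2000 bases of 0.65 (4 genes). The difference was -0.80 for PSMB6, -0.92 for PSMA7 and 1.04 for PSMD2, a scaffold subunit of the base with long transcripts. PSMB4 went against the length order, at 1.10 with models of 943 bases, and so did PSMD3, at -0.71 with models of 2050 bases. Levels of S34F replicate 1, relative to the mean of its genotype, also ran with length (r = -0.54), as did those of wild-type replicate 2 (r = -0.64). The other B1 libraries gave r = -0.04 (wild-type replicate 1) and r = 0.30 (S34F replicate 2), so the relation to length differed among B1 libraries too. The fold change between genotypes and length gave r = -0.04. The part of these library differences in the results for single genes was not tested beyond the fits with and without the B1/B2 term.

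**Figure D5:**
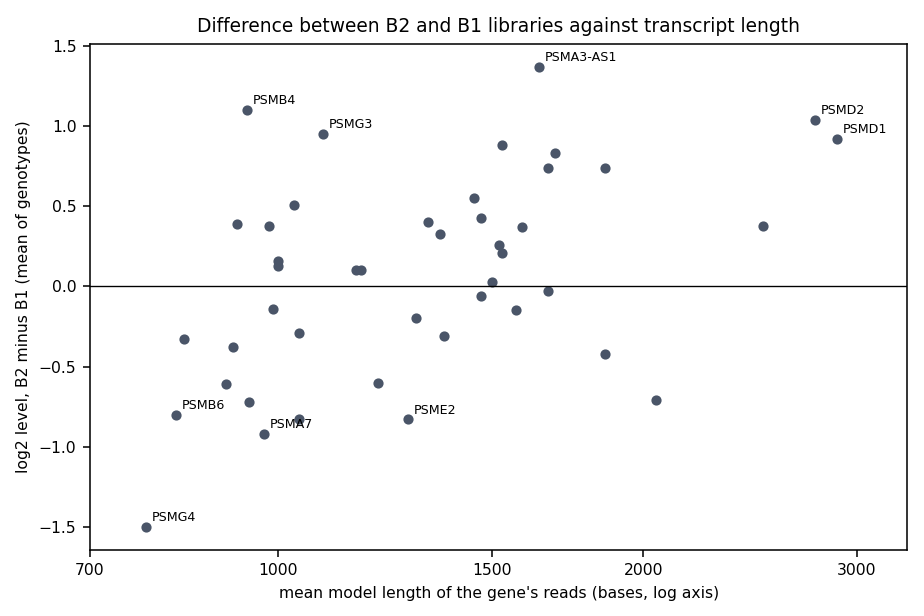
Log2 level in B2 minus B1 libraries, as the mean of both genotypes (y axis), against the mean model length of each gene's reads in bases (x axis, log scale), one point for each of 44 members. PSMB6 (-0.80), PSMA7 (-0.92) and PSMG4 (-1.50) lie low on the left, and PSMD2 (1.04) high on the right.

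A pair of subunit loci lies outside the symbol rule because their gene IDs carry another symbol or none in GENCODE 29. The locus ENSG00000256206.2 on chromosome 11 held 791 reads, and its 3 annotated isoforms are transcripts of PSMA1 in that annotation. Its levels were 139, 86.5 and 95.8 CPM in wild-type and 85.4, 221 and 130 CPM in S34F libraries (log2 fold change 0.43, SE 0.34, edgeR adjusted p = 0.568). The locus ENSG00000108294.4 on chromosome 17 held 5837 reads, and its main annotated isoforms have internal exon lengths found in PSMB3 alone. It had 943, 1220 and 438 CPM in wild-type and 1960, 588 and 574 CPM in S34F libraries (0.29, SE 0.39, edgeR adjusted p = 0.774). Neither locus is counted among the members.

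Genes that work with the proteasome showed no called change at gene level either. This held for 15 tested partners outside the symbol rule, such as AKIRIN2, a factor of nuclear import (39.6 and 25.0 CPM in wild-type and S34F, log2 fold change -0.64, edgeR adjusted p = 0.327), the shuttle factor UBQLN1 (-0.72, adjusted p = 0.444) and TXNL1 (0.47, adjusted p = 0.494). It also held for 5 genes of ubiquitin and its activation, where the polyubiquitin gene UBB had the smallest p (0.53, adjusted p = 0.443). The same was true of 9 genes around the segregase VCP (median 0.21), of 9 genes of the COP9 signalosome (median 0.11), a lid-like complex in which COPS9 had the smallest p (-0.66, adjusted p = 0.277), and of 8 genes of the chaperonin CCT (median 0.28), in which TCP1 did (0.83, adjusted p = 0.175). Of 7 tested genes of class I antigen processing, 0 were called. TAP1, which pumps peptides into the endoplasmic reticulum, had 22.4 and 12.8 CPM (log2 fold change -0.81, edgeR adjusted p = 0.35), and TAPBP 124 and 87.9 CPM (-0.45, adjusted p = 0.436). PDIA3, with the smallest p of this list, went the other way, at 459 and 692 CPM (0.63, edgeR adjusted p = 0.309). The median log2 fold change of the list was 0.17. At an unadjusted p under 0.05 there was 1 gene each in the COP9 and CCT lists and 0 in the partner, ubiquitin, VCP and antigen processing lists. Of the epithelial markers, LAMB3 was called lower (2170 and 841 CPM, -1.39, edgeR adjusted p = 0.029), and KRT5 had 412 and 1030 CPM (1.34, adjusted p = 0.0512).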

How the data were processed

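Libraries were made from Trizol RNA by poly(A)-primed Smart-Seq2 cDNA synthesis and read by 1D nanopore sequencing, per the labels' protocols. The authors deposited raw counts of reads per isoform for the 6 libraries, with isoform models on hg19, per the submitters' processing notes. The sources used here do not give the aligner, read assignment or strand use. A read stands for a cDNA molecule copied by PCR, so counts were not divided by length.

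Counts were summed per gene, and symbols were taken by gene ID from GENCODE 29, which is on another build. Its coordinates are not printed. The quasi-likelihood test of edgeR 4.0.16 (R 4.3.3) was run on genes and on isoforms after TMM scaling and filterByExpr (10 reads, 15 in total), with a B1/B2 term and the Benjamini-Hochberg adjusted p held to 0.05. Usage was tested with diffSpliceDGE (Simes). Events (cassette exons, alternative 5′ and 3′ sites, retained introns) and the 2 most used 3′ ends of a gene, merged within 100 bases, were tested on the counts of both forms with library terms, given 10 reads in every library. There edgeR estimated infinite prior degrees of freedom, which gives all events of like depth the same spread. With log odds in limma 3.58.1 the estimate was 24.29. DESeq2 1.42.0, limma-voom, other filters, scalings, depths and left-out libraries were alternatives. Acceptor bases were read from GENCODE 29 transcripts matched by ID and exon lengths. Tests were tried on simulated data.

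The replicate numbers were taken to pair the libraries. Over all tested genes, deviations from the genotype mean correlated at 0.48, 0.149 and 0.837 for numbers 1, 2 and 3. Such deviations cancel out within a genotype, so these correlations depend on each other and cannot settle the pairing of the B1 libraries. Among the B1 libraries, unlike numbers correlated as well, wild-type 2 with S34F 1 at 0.526 and wild-type 1 with S34F 2 at 0.307, so the numbers 1 and 2 are not told apart by this measure. Members, lists and the naming rule (every called member, the 6 with the smallest p in each test, the catalytic, inducible and activator genes, and in other lists the called and the 3 with the smallest p) were chosen with earlier results of these data known. Epithelial, mesenchymal, blood cell and ciliated or secretory marker lists were included. Of the 7 ciliated or secretory markers only TUBA1A had reads, and it was called higher (1.25, edgeR adjusted p = 0.0207). FOXJ1, DNAI1, SCGB1A1, SCGB3A1, MUC5B and MUC5AC had none. From the list of proteasome partners 1 gene was left out and is not reported here.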

Additional observations from a re-analysis of the deposited data

How the results depend on the processing

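Depth ran from 451540 reads in S34F replicate 2 to 1720292 in wild-type replicate 1, so a given level rests on fewer reads in the former. The count of proteasome genes called at gene level was 0 and became 2, PSMG4 and PSMB9, with no filter on low counts (4.26%, against 2.03% of all genes). Leaving out single libraries gave 0 to 3. There were 3 without S34F replicate 1 (6.38%, against 5.91% of all genes) and 1 without S34F replicate 2 (2.13%, against 7.62%). The 2 isoforms called became 1 with no filter and 1 with replicate number as a block. They became 0 in DESeq2, without the B1/B2 term, in B1 libraries alone and at equal depth. The filter of 10 reads in every library also gave 0. It left both isoforms untested, since each had fewer reads than that in some libraries. Without single libraries the count was 0 to 3, with 3 without S34F replicate 2 (1.42%, against 7.43% of all isoforms). The 1 event called became 0 without the B1/B2 term, with the block and in B1 libraries alone, and 0 to 1 without single libraries. The 1 without S34F replicate 2 (0.3%, against 0.942% of all events) was the PSMA7 exon and not PSME2. With the block, the PSME2 event had adjusted p = 0.113 and its isoform 0.0593, and no other member's call changed among those named. Usage and 3′ ends gave 0 members under every alternative run. Over all genes, 3.24% were called, 0.0284% without the B1/B2 term, 0 with both isolate 2 libraries summed and 7.62% without S34F replicate 2. Of the 38 single features followed, the PSMA7 3′ end alone reversed: its log2 odds of 0.89 became -0.31 in limma and -0.65 in B1 libraries alone, and ranged from -0.65 to 2.23 when single libraries were left out. A change of sign was not counted for values within their SE of 0 that were not called. Causes of these shifts were not tested.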
